A study of Mus musculus with 6 samples.

Results

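The cytosolic ribosomal protein genes were described across 6 conditions of RAW264.7, an established line of mouse macrophages. Members were chosen by gene symbol, as Rpl or Rps followed by a number with or without a final a, x or y, together with Rplp0, Rplp1, Rplp2 and Rpsa. This rule found 76 genes among the 24062 genes listed, of which 46 encode proteins of the large subunit and 30 proteins of the small subunit. M0 cells were not polarized and not irradiated. M1 cells had received LPS at 100 ng/mL with IFN-γ at 20 ng/mL, and M2 cells had received IL-4 at 20 ng/mL, each for 24 h. RM0, RM1 and RM2 cells were these same states given 10 Gy of gamma rays from a cesium source and kept for another 24 h. The sources used here do not state whether the non-irradiated cells were kept for those additional 24 h, so irradiation and a longer culture cannot be told apart. For the polarized cells, a figure legend of the study gives lower concentrations of IFN-γ and IL-4 than those above.

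Each condition was 1 library made from RNA pooled from 5 wells, so no difference between 2 libraries has a replicate check. The labels give bone marrow as the tissue and RAW264.7 as the cell line. Of 7 macrophage markers, 6 were found in the tables, and their summed counts lay between 253024 in M1 and 647140 in RM0. The summed counts of the T cell, B cell, fibroblast, epithelial and erythroid marker lists were each at most 14 in every library and those of the endothelial list were 17 to 56. Cd3e of T cells and Epcam of epithelial cells were at 0 in all 6 libraries. Between 17894937 and 18870516 reads were counted on genes per library. Of the 76 members, 75 had at least 10 counts in at least 3 libraries, and 74 had a mean of at least 1000 counts. The exceptions were Rpl21, with 4 to 11 counts, and Rpl29, with 11 to 20.

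Ribosomal proteins assemble with ribosomal RNA into the small subunit, which decodes the mRNA, and the large subunit, which joins amino acids into protein. Their mRNAs are among the most abundant of a growing cell, and many begin with a C followed by a run of pyrimidines, the 5′ terminal oligopyrimidine (TOP) motif, through which the mTOR pathway and LARP1 set how strongly they are translated. Some members also act away from the ribosome: RPL5 and RPL11 bind MDM2 and thereby stabilize p53, and RPL13A, released from the ribosome after IFN-γ treatment of myeloid cells, joins a complex that silences the translation of inflammatory mRNAs.

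Start site sequences were looked up because the TOP motif is the feature by which these mRNAs are known to be controlled together. RefSeq start sites on GRCm38.p6 were found for 56 of the 76 members, with 66 starts in all. The windows below hold 30 bases of the coding strand, with the annotated start as the base after the first 15, and capitals mark the longest run of C and T.
Rps6, chr4:86857353-86857382, minus strand: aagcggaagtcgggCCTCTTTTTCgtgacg
Rplp2, chr7:141447636-141447665, plus strand: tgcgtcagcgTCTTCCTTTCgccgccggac
Rpl38, chr11:114668565-114668594, plus strand: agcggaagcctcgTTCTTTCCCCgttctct
Rps27, chr3:90213634-90213663, minus strand: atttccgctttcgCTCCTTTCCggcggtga
Rpl15, chr14:18270972-18271001, minus strand: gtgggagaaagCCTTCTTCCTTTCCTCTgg
Rpl13a, chr7:45128731-45128760, minus strand: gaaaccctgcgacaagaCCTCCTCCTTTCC
Rps2, chr17:24720048-24720077, plus strand: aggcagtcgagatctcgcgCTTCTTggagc
Rplp0, chr5:115559452-115559481, plus strand: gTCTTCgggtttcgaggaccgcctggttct
The first 5 windows have a C at the annotated start followed by at least 4 pyrimidines. In the Rpl13a window the long run lies just inside the annotated start. The Rps2 window holds a shorter run a few bases inside the transcript, and the Rplp0 window holds none at its start.

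A C followed by at least 4 bases that are C or T, read on the coding strand alone, stood exactly at 13 of the 66 member starts (19.7%), against 2.51% of 32851 starts of all genes. It lay within 5 bases of the start in 43.9% of member starts and 18.3% of all starts. A run of at least 8 pyrimidines occurred somewhere in the 30-base window in 39.4% of member starts and 12% of all starts, and both kinds of match overlap. The letters TATAAA, searched on the coding strand upstream of the start, were found at 0 of the member starts and 1.99% of all starts. These are matches of letters at annotated starts, which can lie some bases away from the starts used in these cells.

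The members together took 6.36% and 6.29% of all counted reads in M0 and RM0, 7.36% and 6.58% in M1 and RM1, and 5.86% and 5.69% in M2 and RM2. Exact Clopper-Pearson intervals at 95% were narrow, for example 7.34% to 7.37% in M1, and they cover counting error only. M1 thus stood highest, RM1 second, and both M2 libraries lowest. In bulk RNA, fewer cells that express a gene and less of its RNA per cell cannot be told apart. The order was the same for the large subunit, with 4.09% in M1 and 3.21% in RM2, and for the small subunit, with 3.27% in M1 and 2.49% in RM2, except that RM0 and M0 changed places for the large subunit, at 3.55% and 3.53%.

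**Figure D1:**
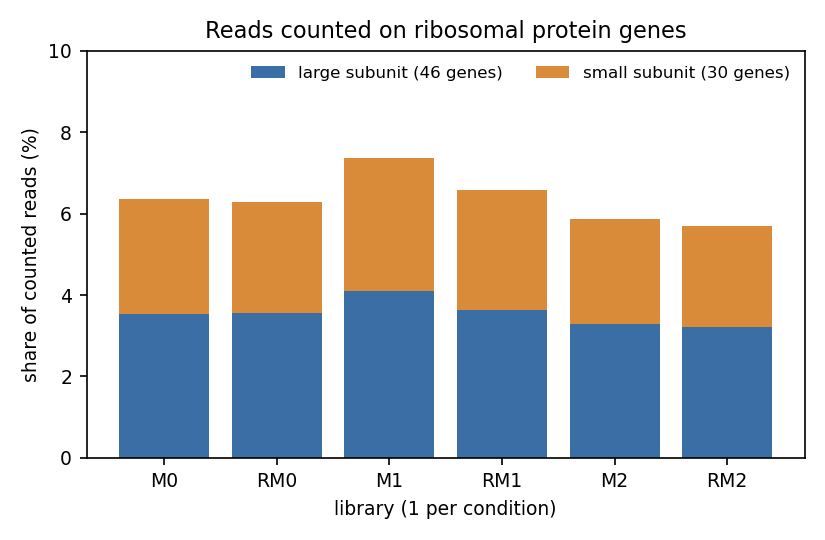
Share of counted reads (%, vertical axis from 0) on the 46 large subunit and 30 small subunit genes, stacked, in each of the 6 libraries, 1 per condition. M1 stands highest at 7.36% and RM2 lowest at 5.69%.

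After scaling of the libraries with the TMM method, 68 of the 76 members had their highest level in M1, 7 in RM1 and 1 in M2. The lowest level fell in RM2 for 37 members, in M2 for 36, in RM0 for 2 and in M0 for 1. Rps6, the subunit protein phosphorylated by S6 kinase, shows the common pattern: it had 1161 and 1224 scaled CPM (counts relative to the TMM-scaled size of the library) in M0 and RM0, 1795 and 1490 in M1 and RM1, and 1024 and 1060 in M2 and RM2. Across the 6 libraries its log2 level had the highest Pearson correlation with the mean of the other members, 0.997, followed by Rpl32, Rps19, Rps12 and Rpsa, all at 0.995 or above. These correlations are descriptions over 6 libraries that all genes share. The 5 members least like the rest were Rpl29, with few counts, at -0.22, Rps27a at 0.27, Rps2 at 0.57, Rpl15 at 0.61 and Rpl7a at 0.66.

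Polarization with LPS and IFN-γ was compared with the unpolarized state first without irradiation. In M1 against M0, 74 of 76 members were higher, and their median log2 fold change was 0.63, where that of all 11778 genes tested was -0.05. At 1.5-fold, 46 members were higher and 0 lower, beside 19.1% of all genes that were 1.5-fold higher. This count was 2 with library totals, where 9.07% of all genes passed, and 10 with the trend on transcript length removed, where 19.2% did. At 2-fold only Rplp0 and the barely counted Rpl21 were called, 2 of 76 members, where 22.7% of all genes were called in either direction. With library totals in place of TMM neither was called, and Rplp0 then had 0.64. The members thus shifted together by a modest amount: the SD of their log2 fold changes was 0.23, against 1.02 over all genes.

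Among irradiated cells the same comparison gave smaller values. In RM1 against RM0, 70 of 75 members were higher with a median log2 fold change of 0.33, against 0.00 over all genes. At 1.5-fold, 9 members were higher, beside 14.9% of all genes, and 2 with library totals, where 8.65% of all genes passed. At 2-fold Rps27a was higher and Rps2 lower, 2 of 75 members, where 14.1% of all genes were called. These 2 comparisons share no library, and 69 of 75 members (92%) were higher in both, against 38.4% of all genes. Of the 74 members with a mean of at least 1000 counts, 65 had the larger difference without irradiation, with a median gap of 0.30 on the log2 scale, which was not tested.

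**Figure D2:**
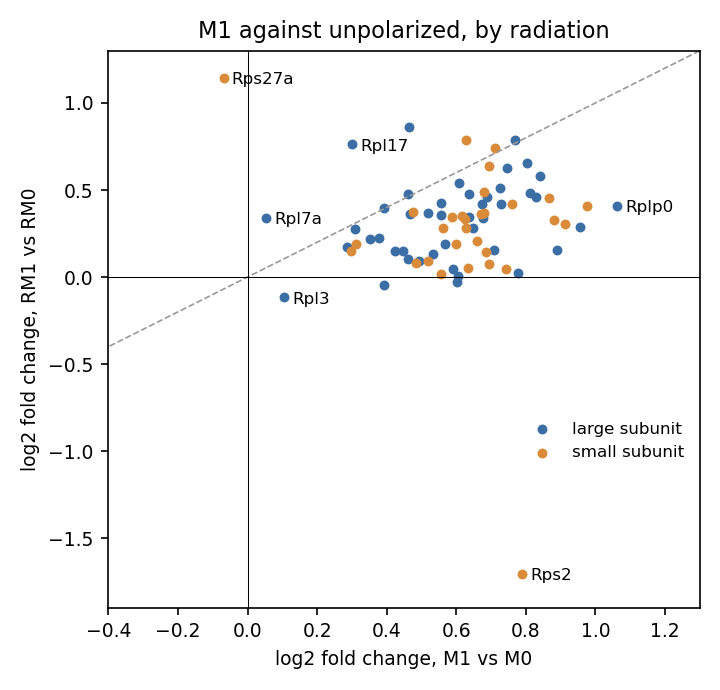
Log2 fold change of each of the 74 members with a mean of at least 1000 counts in M1 against M0 (horizontal) and RM1 against RM0 (vertical), blue for the large and orange for the small subunit, with the dashed line marking equal values. The points lie mostly in the upper right below the line, while Rps27a (-0.07 and 1.14) and Rps2 (0.79 and -1.70) stand apart.

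The M1 state shared by both radiation arms was tested by the quasi-likelihood method of edgeR, in which the irradiated and non-irradiated libraries stand in for replicates and 2 residual degrees of freedom remain. Of the 75 members tested, 47 (62.7%) rose and 0 fell at an adjusted p of 0.05 with Benjamini-Hochberg adjustment over all 11574 genes, where 22.9% of all genes rose and 24.7% fell. DESeq2 called 50 up and 0 down, where 20.4% of all genes rose and 18.2% fell. The median fitted log2 fold change of the members was 0.46, against -0.03 over all genes.

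Rpl39, a small protein that lines the exit tunnel of the large subunit, had the smallest p. It had 384 scaled CPM in M0 and 362 in RM0, against 653 in M1 and 625 in RM1, so the groups did not overlap. Its log2 fold change was 0.78 ± 0.13 (SE) with an edgeR adjusted p of 0.000864. Rpl24, a large subunit protein at the interface between the subunits, had 546 and 547 scaled CPM without polarization (M0, RM0) and 953 and 862 after it (M1, RM1), and a log2 fold change of 0.73 ± 0.13 with an edgeR adjusted p of 0.00094. In both genes M1 stood somewhat above RM1.

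The other members with the 10 smallest p-values were Rps27, Rpl41, Rps15a, Rpl35a, Rpl26, Rpl19, Rps29 and Rps28, with log2 fold changes of 0.57 to 0.73 and edgeR adjusted p from 0.00147 to 0.00277. Rpl35a, Rpl26 and Rps28 did not pass with library totals or with the trend on transcript length removed. Rpl41 encodes the shortest protein of the set. Rpl26, which contacts the exit tunnel and is known to bind the p53 mRNA, rose by a log2 fold change of 0.57.

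All 3 genes of the P-stalk, the arm of the large subunit that recruits elongation factors, rose. Rplp0 had 1729 and 2027 scaled CPM in M0 and RM0, 3609 and 2688 in M1 and RM1, and 1483 and 1533 in M2 and RM2. Both M1 libraries were above the other 4, with RM1 well below M1. The fitted log2 fold change of Rplp0 was 0.74 ± 0.17 with an edgeR adjusted p of 0.00567, and those of Rplp1 and Rplp2 were both 0.65 with edgeR adjusted p of 0.00517 and 0.00337.

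Rpl13a, the silencer of inflammatory mRNAs described above, had 1374 and 1552 scaled CPM in M0 and RM0, 2667 and 1896 in M1 and RM1, and 1218 and 1181 in M2 and RM2. Its level was therefore highest in M1 and next highest in RM1. Its log2 fold change in the M1 state was 0.63 ± 0.17 with an edgeR adjusted p of 0.0119. Rps3, at the mRNA entry channel and also known as a partner of NF-κB, was close to it, at 0.61 ± 0.17 with an edgeR adjusted p of 0.0119.

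The p53-linked pair was not alike in the test. Rpl11 had 541 and 546 scaled CPM in M0 and RM0, 803 and 624 in M1 and RM1, and 503 and 490 in M2 and RM2. Its log2 fold change in the M1 state was 0.38 ± 0.14 with an edgeR adjusted p of 0.0396. Rpl5 had 1170 and 1109 scaled CPM in M0 and RM0, 1425 and 1249 in M1 and RM1, and 1084 and 1090 in M2 and RM2, and its value of 0.23 ± 0.13 did not pass, with an edgeR adjusted p of 0.182. The difference between the 2 genes was not tested.

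Among the other members named for a role, Rpsa (0.52), Rps6 (0.46), Rps25 (0.49), Rpl38 (0.56), Rpl10 (0.39), Rps4x (0.53) and Rpl36a (0.42) also rose in the M1 state, with edgeR adjusted p from 0.00295 to 0.036. Rps25 is known for its part in initiation at internal ribosome entry sites, Rpl38 for the translation of Hox mRNAs, and Rpl10 for its late joining of the large subunit. Rpl22 had a log2 fold change of 0.29 with an edgeR adjusted p of 0.0587, and Rps27a, made as a fusion with ubiquitin, 0.52 with an edgeR adjusted p of 0.0826. Rpl3, which lies at the peptidyl transferase centre, was flat, with 1242 and 1292 scaled CPM in M0 and RM0 and 1334 and 1192 in the M1 libraries, a log2 fold change of -0.01 and an edgeR adjusted p of 0.977.

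The size of the M1 difference depended on how libraries were scaled and on transcript length. With library totals in place of TMM the median over all genes in M1 against M0 moved from -0.05 to -0.46, and the members then had a median of 0.21 with 63 higher and 13 lower. The distance between the members and all genes remained at 0.67. A change of scaling shifts all genes nearly alike, so this distance could not show its effect. Member transcripts were short, with a median of 814.5 bases against 2821.5 over the genes tested, and removing the trend with length lowered that distance to 0.33 in M1 against M0 and to 0.21 in RM1 against RM0. With that trend removed from each library, 26 of 75 members (34.7%) rose and 0 fell in edgeR's test of the M1 state, where 25.1% of all genes rose and 22.9% fell.

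**Figure D3:**
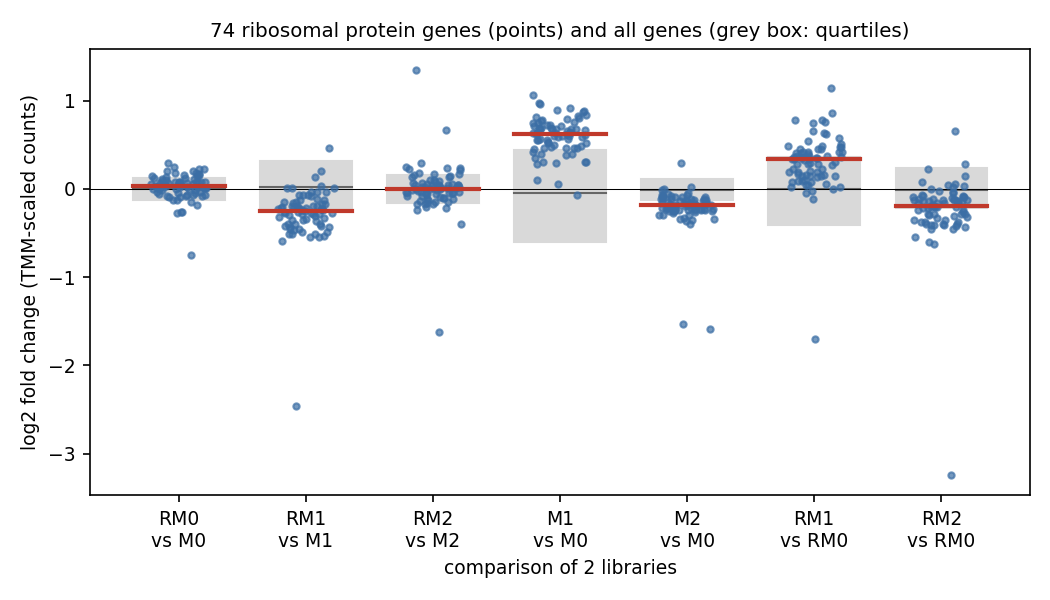
Log2 fold change (vertical axis) of the 74 members with a mean of at least 1000 counts in 7 comparisons of 2 libraries, with the median of the members in red and, for all genes tested, the median as a grey line and the quartiles as a grey box. The members are shifted up in M1 against M0 (median 0.63) and in RM1 against RM0 (0.33), and down in RM1 against M1, M2 against M0 and RM2 against RM0.

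IL-4 polarization gave a small shift the other way. In M2 against M0, 72 of 75 members were lower, with a median log2 fold change of -0.18 against -0.01 over all genes. At 1.5-fold, 2 members were lower, beside 1.79% of all genes, and the same 2, Rps2 and Rpl17, were the only members past 2-fold, where 1.44% of all genes were called. In RM2 against RM0, 65 of 75 members were lower with a median of -0.19. At 1.5-fold, 3 members were lower, Rps2, Rpl41 and Rpl36, beside 3.95% of all genes, and Rps27a was higher at 0.66. At 2-fold only Rps2 was called, 1 of 75 members, where 2.6% of all genes were called. These comparisons share no library, and 62 of 75 members (82.7%) were lower in both, against 37.8% of all genes.

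Apart from Rps2 and Rpl17, single members moved by less than 1.5-fold in M2 against M0. Rpl23a, at the exit tunnel, was the highest of the members in M2 against M0 at 0.30, with 6409 counts in M0 and 8079 in M2, and Rpl14 was the lowest after Rps2 and Rpl17 at -0.39. In edgeR's quasi-likelihood test of the M2 state shared by both radiation arms, 0 of 75 members rose and 0 fell, where 0.181% of all genes rose and 0.0605% fell. At an unadjusted p of 0.05, 6 members were lower, among them Rps2, Rpl17, Rpl36 and Rpl41, and DESeq2 also called 0 after adjustment and 6 before it. These 6 are 8% of the members, where 10.3% of all genes in edgeR and 5.32% in DESeq2 had an unadjusted p under 0.05 in either direction. Rps2 was nearest, with an edgeR adjusted p of 0.0513. Without M1 and RM1, a fit with 1 residual degree of freedom, 25 of 75 members fell (33.3%) and 1 rose, where 5.10% of all genes fell and 7.003% rose. The smallest edgeR adjusted p of a member in that fit was 2.0e-83, a value that so few libraries cannot bear out. Its calls are therefore not read as a decrease in M2. With the length trend removed, the distance from all genes was -0.11 in M2 against M0 and -0.06 in RM2 against RM0.

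Irradiation was compared within each state. In RM0 against M0, 50 of 75 members were higher, the median was 0.04 against 0.00 over all genes, and 0 members passed 2-fold, where 1.54% of all genes were called. In RM2 against M2, 38 members were higher and 37 lower with a median of 0.00, and Rpl17 and Rps2 passed 2-fold in opposite directions, where 1.97% of all genes were called. With library totals the split was 33 higher to 42 lower in RM0 against M0 and 22 to 53 in RM2 against M2, and with the length trend removed it was 54 to 21 and 56 to 19. The split therefore turned with the setting, while the distance of the member median from that of all genes stayed between 0.00 and 0.09 under these settings. Scaling with library totals could hardly move that distance, as it shifts all genes nearly alike.

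In RM1 against M1, 68 of 76 members were lower, with a median log2 fold change of -0.24 against 0.02 over all genes. At 1.5-fold, 3 members were lower, Rps2, Rps3 and Rpl21, beside 6.72% of all genes. At 2-fold only Rps2 and the barely counted Rpl21 were called, where 5.32% of all genes were called. Rps3 had 3068 and 2043 scaled CPM in M1 and RM1, and 1631 and 1651 in M0 and RM0. This comparison uses the same M1 library as M1 against M0, so the high level of M1 enters both. With the length trend removed the distance of the members from all genes shrank from -0.26 to -0.06.

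Over the 3 states 10 of 75 members were lower in every irradiated library (13.3%, against 18.3% of all genes) and 0 were higher in every one (against 20.7%). In edgeR's quasi-likelihood test of irradiation with the states standing in for replicates, 0 of 75 members rose and 0 fell at an adjusted p of 0.05, where 0.346% of all genes rose and 0.112% fell. At an unadjusted p of 0.05 only Rps2 was lower, with an edgeR adjusted p of 0.145, while DESeq2 called 0 after adjustment and 2 before it, where 14.8% of all genes in edgeR and 9.05% in DESeq2 had such a p. Without M1 and RM1, again with 1 residual degree of freedom, Rpl15 and Rpl17 rose (2.67% of the members) and Rpl7a, Rps2 and Rps27a fell (4%), where 2.52% of all genes rose and 2.17% fell. Without either of the other states Rps2 alone fell. All these fits have too few libraries to bear out their calls, which are not read as changes with irradiation. Rpl17, for example, had -0.26 in RM0 against M0 and 1.35 in RM2 against M2.

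A few members left the common pattern. Rps2, a small subunit protein near the mRNA entry channel, had 1503 and 1515 counts in M0 and RM0, 1972 and 393 in M1 and RM1, and 511 and 161 in M2 and RM2. It was thus alike in both unpolarized libraries and much lower in RM1, M2 and RM2. The log2 fold change was -2.46 in RM1 against M1 (95% counting interval -2.63 to -2.31), -1.62 in RM2 against M2 (-1.897 to -1.374), -1.59 in M2 against M0 (-1.74 to -1.45) and -3.24 in RM2 against RM0 (-3.50 to -3.02).

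Rpl17, a large subunit protein at the exit tunnel, had 3195 and 2629 counts in M0 and RM0, 2983 and 3783 in M1 and RM1, and 1131 and 2825 in M2 and RM2. The M2 library alone was low. Its log2 fold change was -1.53 in M2 against M0 (-1.64 to -1.44) and 1.35 in RM2 against M2 (1.25 to 1.46).

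Rps27a had 24486 and 14362 counts in M0 and RM0, 17698 and 26887 in M1 and RM1, and 23260 and 23057 in M2 and RM2. The RM0 library was the low one here, at a log2 fold change of -0.75 against M0 (-0.78 to -0.72), and RM1 was the highest, at 1.14 against RM0 (1.11 to 1.17). Rpl15 had 4793 and 5621 counts in M0 and RM0, 6235 and 4837 in M1 and RM1, and 4465 and 6941 in M2 and RM2, with a log2 fold change of 0.67 in RM2 against M2 (0.62 to 0.72). In every one of these genes 1 or a few libraries departed by far more than the counting error, and the spread between wells is not known.

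**Figure D4:**
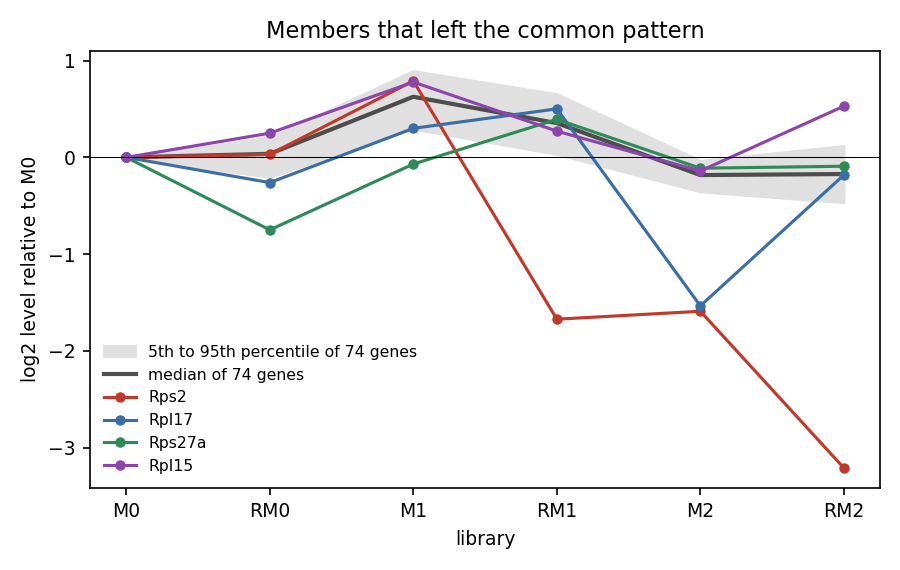
Log2 level relative to M0 (vertical axis) of Rps2, Rpl17, Rps27a and Rpl15 in the 6 libraries, with the median (dark line) and the 5th to 95th percentile (grey band) of the 74 members with a mean of at least 1000 counts. Lines only join points of 1 gene, and Rps2 falls to the bottom in RM2, Rpl17 is low in M2 and Rps27a is low in RM0.

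Ribosomal protein genes have many processed copies elsewhere in the genome, and how reads that fit several places were treated is not given in the sources used here. Each member's coding sequence was therefore compared with all other GENCODE M21 transcripts in windows of 100 bases. For Rps27 the whole transcript of 546 bases was used in place of a coding sequence. Over 75 members with such windows, a median of 72.9% of the windows also occurred in another annotated gene, 24 members shared all of them, and a few, among them Rpl22, Rpl32 and Rps3, shared none. All 4 genes of the preceding paragraphs were among those with shared sequence: Rps2 shared 69.0% of its windows with 36 other genes, and Rpl17, Rps27a and Rpl15 shared 100% with 15, 4 and 11. Their values are uncertain for that reason, and the part of the copies in them was not tested.

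Among the 21 members with less than 50% of coding windows shared, 14 rose and 0 fell in the M1 state by edgeR's test. Rpl34 and Rps27 are among these 14, though their counts nearly equal those of another listed gene, as given below. Over all genes 22.9% rose and 24.7% fell. Of these 21 members, Rplp0 passed 2-fold in M1 against M0 at a log2 fold change of 1.06. In RM1 against M1, RM2 against M2, M2 against M0, RM1 against RM0 and RM2 against RM0, 0 of them passed 2-fold. Rps3, with no shared window, rose. Rpl34 and the listed copy Rpl34-ps1 differed by only 8 to 36 reads per library, and Rps27 and Rps27rt by 12 to 36. In every library the second gene of each pair held at least 99.6% of the count of the first. The pairs are therefore not read as separately counted genes. Whether the same reads were counted under both names was not tested.

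Levels were compared between genes per length of the annotated transcript. Among the 74 members with a mean of at least 1000 counts, the M0 level ran from 76.1 to 2743 scaled CPM per kilobase with a median of 863, a 36.02-fold range for proteins that are mostly present once per ribosome. Rps24, Rplp1, Rpl32, Rps15 and Rpl19 stood highest, and after Rpl21 and Rpl29 the lowest were Rps2, Rpl15 and Rpl35a. Per kilobase of coding sequence Rpl41, Rplp1, Rps24 and Rpsa stood highest, and Rpl21, Rpl29, Rps2, Rpl35a and Rpl17 lowest. All 5 of the latter shared more than 50% of their coding windows with other genes, while 72% of all members with windows shared 50% or more. Levels per coding length divide all reads counted on a gene by the coding length alone. For Rpl41 that is 75 of 437 transcript bases, and its rank per transcript length was 36. For Rps27 the whole transcript length was used.

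**Figure D5:**
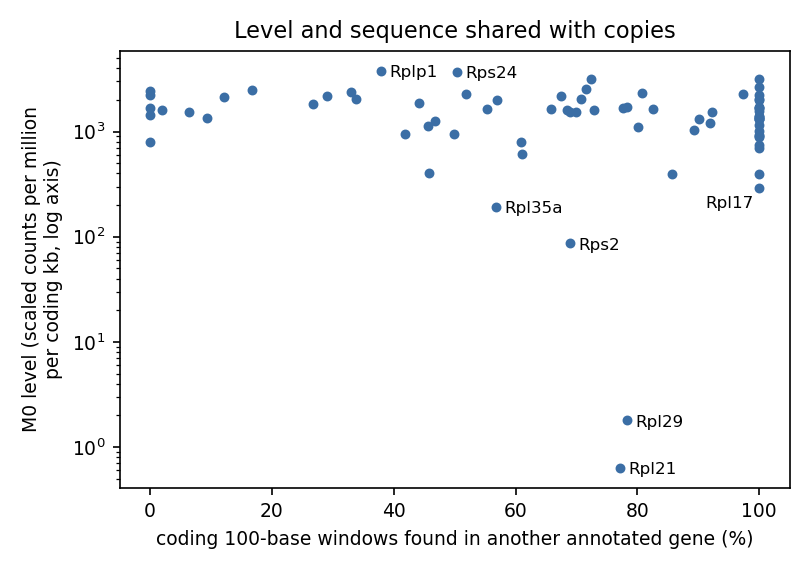
M0 level in scaled CPM per kilobase of coding sequence (vertical, log axis) against the percent of 100-base coding windows that also occur in another annotated gene (horizontal), 1 point per member with such windows. The members with the lowest levels, Rpl21, Rpl29, Rps2, Rpl35a and Rpl17, lie at 56.7% or more.

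Other genes of the ribosome and of its supply were described from fixed lists, beside the 22.9% of all genes that rose and the 24.7% that fell in the M1 state. Among further ribosomal protein genes whose symbols the rule did not match, Fau (0.68) and Rps3a1 (0.47) rose in the M1 state by edgeR's test, while Gnb2l1, the gene of RACK1, had 0.23 with an edgeR adjusted p of 0.248. Of 16 genes for TOP-type mRNAs of translation, 9 rose and 0 fell, among them Tpt1 (0.86), Eef1a1 (0.56) and Pabpc1 (0.54), while Eef2 had 0.11 with an edgeR adjusted p of 0.645. Of 77 mitochondrial ribosomal protein genes, 21 rose and 10 fell, with a median of 0.04, so that the share that rose was near that of all genes.

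The dedicated chaperones, which escort single ribosomal proteins to the assembling subunits, went the other way. Of 8, 0 rose and 6 fell in the M1 state: Heatr3, the escort of RPL5 and RPL11, by a log2 fold change of -2.51, Grwd1, that of RPL3, by -1.56, Tsr2, that of RPS26, by -0.78, Pdcd2, that of RPS2, by -0.77, Ltv1, that of RPS3, by -0.55, and Bccip by -0.47. Aamp, with -0.29, and Pdcd2l, with 0.07, did not pass. Of 10 regulators of TOP mRNAs, 0 rose and 2 fell, Rptor (-0.62) and Mtor (-0.49), while Larp1 had -0.20 with an edgeR adjusted p of 0.208. These 2 of 10 are a smaller share than the 24.7% of all genes that fell. In all these lists 0 genes passed for irradiation or for the M2 state in edgeR's test.

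Paralogs were counted beside their partners. Rpl22l1, the paralog of Rpl22, rose in the M1 state by 0.86 with an edgeR adjusted p of 0.000462, and Rpl7l1, the paralog of Rpl7 with a role in ribosome assembly, fell by 0.75 on the log2 scale with an edgeR adjusted p of 0.000663. Rpl36al rose by 0.36 with an edgeR adjusted p of 0.0283, and Rps27l, known as a p53 target, had 0.22 with an edgeR adjusted p of 0.151. Rpl10l, Rpl39l and Rps4l, paralogs known from the testis and other special tissues, had 0 counts in all libraries, where a count of 0 allows up to 3 reads per library.

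Members with and without a long pyrimidine run at the start had close medians. The 25 members with a run of at least 8 in the start window had a median log2 fold change of 0.63 in M1 against M0 and -0.26 in RM1 against M1. The 31 with shorter runs had medians of 0.62 and -0.26. The large and small subunits were likewise close, with medians of 0.60 and 0.65 in M1 against M0 and of -0.23 and -0.27 in RM1 against M1.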

How the data were processed

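RNA-seq of 6 libraries, 1 per condition, was analysed. Per the labels, the authors trimmed reads with Trimmomatic 0.36, aligned them to mm10 with HISAT2 2.2.1, counted them per RefSeq gene with HTSeq 0.11.3 and deposited raw counts without normalization. The strand setting and the treatment of multi-mapping reads are not given in the sources used here. Counts were scaled with TMM in edgeR 4.0.16 (R 4.3.3, limma 3.58.1), and log2 fold changes between 2 libraries used a prior count of 2 and genes that reached 10 counts in either library, with no test. The quasi-likelihood test of edgeR used state and irradiation as terms and genes that reached 10 counts in 3 or more libraries. Benjamini-Hochberg adjustment was over all genes at 0.05. The test was run on simulated data for irradiation only, without differences between states, so the simulation does not cover the M1 and M2 results. In the test, states and radiation arms stand in for replicates, and p-values measure only the spread between these libraries. Alternatives were DESeq2 1.42.0, other scalings, prior counts and filters, removal of GC or length trends, and states left out. Removal of these trends within the test, the members with under 50% of windows shared and levels per coding length were chosen after seeing the data. Transcript lengths and shared windows came from GENCODE M21, and start sites from RefSeq GRCm38.p6. Tables and figures were made in Python 3.11.15 (matplotlib 3.10.9, statsmodels 0.14.6, scipy 1.17.1, pandas 2.3.3, numpy 2.4.6).

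The members and lists were chosen with earlier results of these data known. Named members were the 3 highest and 3 lowest in each comparison, those past 2-fold, the 10 with the smallest p in the M1 state, the extremes by level and by likeness to the other members, and those listed for a role. The members without shared windows were named after their values were seen, and some single genes are not reported here. Neither the intervals nor the limit of 3 reads includes more than counting error.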

Additional observations from a re-analysis of the deposited data

Results flagged for a closer look

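In 3 members irradiation went with opposite differences in different states, at least 1.5-fold in 1 state and at least 0.2 on the log2 scale in the other, each with a 95% counting interval that excluded 0. Other members had opposite differences of smaller size. With 1 library per condition the difference between states was not tested. Rpl15 had a log2 fold change of -0.51 in RM1 against M1 and 0.67 in RM2 against M2. Rpl17 had -0.26 in RM0 against M0 and 1.35 in RM2 against M2. Rps27a had -0.75 in RM0 against M0 and 0.46 in RM1 against M1. All 3 shared 100% of their 100-base coding windows with other annotated genes, and the part of these copies in the values was not tested.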

How the results depend on the processing

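No paired analysis was possible because each condition has 1 library and the labels carry no replicate numbers shared between groups beyond it. Leaving out 1 radiation arm leaves 0 residual degrees of freedom, so no test was run.

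Distances of the member median from that of all genes kept their direction under the settings tried in every comparison except RM2 against M2, which lay at 0.0014 and was -0.0059 without a filter. Without the length trend they were 0.068 in RM0 against M0 (main 0.035), -0.056 in RM1 against M1 (main -0.26), 0.087 in RM2 against M2, 0.33 in M1 against M0, -0.11 in M2 against M0, 0.21 in RM1 against RM0 and -0.064 in RM2 against RM0. Without the GC trend it was -0.21 in RM1 against M1, and without a filter 0.71 in M1 against M0. Over members with under 50% of windows shared it was 0.073 in RM0 against M0. Changes of scaling shift all genes nearly alike, so they could hardly move these distances and are no check of them.

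Counts past 2-fold in RM1 against M1 (main 2) were 1 with library totals, at least 50 counts or the length trend removed. In M1 against M0 (main 2) they were 4 with DESeq2 size factors, 0 with library totals and 1 with at least 50 counts. In RM1 against RM0 library totals gave 1. Over the members with under 50% of windows shared, 1 passed 2-fold in M1 against M0 and 0 in the other comparisons, and 0 were 1.5-fold lower in M2 against M0 or RM2 against RM0.
Counts past 1.5-fold in RM1 against M1 (main 3) were 6 with DESeq2 size factors and 5 with upper-quartile factors or the GC trend removed. In M1 against M0 (main 46) they were 2 with library totals and 10 without the length trend, in RM1 against RM0 (main 9) 2 with library totals and 14 without the GC trend, and in RM2 against RM0 (main 3) 1 with library totals or without the length trend.

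In the M1 state (main 47 up) edgeR called 13 up and 1 down with library totals, where 9.43% of all genes rose and 41.0% fell. It called 26 up without the length trend, where 25.1% of all genes rose and 22.9% fell. Without M2 and RM2 it also called 26 up, where 18.6% of all genes rose and 20.0% fell. In the M2 state (main 0) it called 1 down with DESeq2 size factors, TMM factors without the members or no filter except 1 count. Under these settings 0.0605% to 0.0754% of all genes fell. Without M1 and RM1 it called 1 up and 25 down, where 7.003% of all genes rose and 5.10% fell. For irradiation (main 0) leaving out 1 state gave 0 to 2 up and 1 to 3 down. In these fits 0.371% to 2.52% of all genes rose and 0.397% to 2.17% fell. Each fit with a state left out had 1 residual degree of freedom, and its calls for irradiation are not read as changes. The 10 members named by p in the M1 state passed 0.05 under 7 of 9 alternatives, and 7 of the 10 passed with library totals or without the length trend.

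Shares without the most abundant other genes were 7.504% and 7.508% in M0 and RM0, 9.003% and 7.93% in M1 and RM1, and 6.85% and 6.71% in M2 and RM2. The cause of these shifts was not tested. Few counts limit the values of Rpl21 and Rpl29 alone among the members. These 2 genes shared 77.2% and 78.2% of their coding windows with 40 and 25 other genes. The part of such copies in the low counts was not tested.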
